A study of Homo sapiens with 6 samples.

Results

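Kinesins are motor proteins that walk along microtubules or take their ends apart. The kinesin genes were taken as every protein-coding entry whose symbol begins with KIF followed by a digit or by C, which gave 43 of the 58938 entries of the table, among 19951 protein-coding ones. Of the 43, 12 were set apart as mitotic kinesins (KIF11, KIF14, KIF15, KIF18A, KIF18B, KIF20A, KIF20B, KIF22, KIF23, KIF2C, KIF4A and KIFC1), which left 31 others. One of the others, KIF1BP, encodes a protein that binds kinesins and is not itself a motor. Messenger RNA was measured in HCT116, an established human colorectal cancer cell line, in 3 libraries of cells that overexpressed MST3 from a plasmid and in 3 libraries of cells that received a vector and are labelled WT. MST3 is a protein kinase encoded by STK24. Plasmids were delivered with a lipid reagent to cells at 60% density, with a change of medium at 6 hours and RNA collection at 30 hours. The share of cells that took up the plasmid is not given. Nothing in the labels says that the numbered libraries of a group were separate cultures. The p-values therefore reflect no more than the spread of these 6 libraries, which may be technical.

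Mitotic kinesins build and use the spindle. Some push the poles apart, some bring chromosomes to the middle, and some bundle microtubules between the separating chromosomes so that the cell can divide. Their mRNAs belong to the late cell cycle program, which in human cells is held down in resting cells and switched on before division through a promoter element called CHR and through nearby CCAAT boxes. The other kinesins mostly carry vesicles, mitochondria and ciliary cargo, and many of them serve neurons. Kinases of the MST3 group have been linked to cell polarity and to the Hippo pathway, and the comparison here asks which mRNAs differed when MST3 was overexpressed.

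The promoters of the mitotic kinesins carried these letters more often than those of the other kinesins. In the RefSeq promoter table (GRCh38.p14), which spans 250 bases before and 50 bases after each gene's start, promoters were found for all 12 mitotic kinesins and for 23 of the 31 others. KIF5A, KIF13B, KIF19, KIF21B, KIF26B, KIF27, KIFC2 and KIFC3 had none there. A CHR, searched as TTTGAA or TTCGAA on both strands, stood in 10 of 12 mitotic promoters (83.3%) and in 3 of 23 other kinesin promoters (13%), against 16.6% of all 27305 promoters. CCAAT on either strand stood in 10 of 12 mitotic promoters and in 8 of 23 others (34.8%), against 35.7% of all. Both were present in 9 of 12 mitotic promoters (75%) and in 3 of 23 others, against 6.58% of all. The letters of the 2 motifs did not overlap in the nearest pairs. In all 9 mitotic promoters with both, a CHR lay downstream of a CCAAT box, and the starts of the nearest pair were 9 to 122 bases apart, with a median of 34. Of the other kinesins with both, KIF24 and KIF4B, a copy of KIF4A, had the same order, at 48 and 24 bases, and KIF5B had the reverse order. The order was not counted over all promoters. A match describes letters in a window and not a bound site.

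The last 80 bases before the start are shown for 5 mitotic kinesins that carry the pair and for KIF2C, which has neither motif in its window. Capitals mark CHR and CCAAT letters on either strand, so ATTGG is a CCAAT box and TTCAAA a CHR read from the other strand. The stretches run 5′ to 3′ along the gene's strand. They are chrX:70290024-70290103 (plus strand) for KIF4A, chr10:92593050-92593129 (plus) for KIF11, chr11:28108157-28108236 (minus) for KIF18A, chr15:69414269-69414348 (plus) for KIF23, chr16:29790671-29790750 (plus) for KIF22 and chr1:44739757-44739836 (plus) for KIF2C.
KIF4A: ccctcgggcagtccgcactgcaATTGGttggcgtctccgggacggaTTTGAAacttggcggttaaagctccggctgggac
KIF11: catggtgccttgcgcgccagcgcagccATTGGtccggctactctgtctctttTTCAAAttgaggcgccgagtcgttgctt
KIF18A: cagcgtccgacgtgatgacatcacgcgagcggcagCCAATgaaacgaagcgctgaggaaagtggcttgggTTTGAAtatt
KIF23: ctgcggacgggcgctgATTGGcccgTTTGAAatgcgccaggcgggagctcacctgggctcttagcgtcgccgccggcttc
KIF22: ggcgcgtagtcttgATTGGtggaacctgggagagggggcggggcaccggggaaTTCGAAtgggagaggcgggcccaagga
KIF2C: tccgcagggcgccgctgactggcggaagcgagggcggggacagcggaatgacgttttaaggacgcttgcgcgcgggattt

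Apart from MST3 replicate 1, the libraries were of similar depth. Reads recovered from the deposited values came to 15289213 to 17209736 per MST3 library and 17296201 to 17708029 per vector library. MST3 replicate 1 had the fewest reads, 15289213, and yet had reads on 27442 genes, against 25099 to 25501 in the other 5 libraries. STK24 had 63.7, 72.2 and 76 FPKM (fragments per kilobase of gene, scaled per library by the authors) in the MST3 libraries, against 17.1, 17.4 and 17.4 FPKM in the vector libraries. Its log2 difference was 1.97 (limma, adjusted p = 0.000998), with all MST3 libraries above all vector libraries. Of 8 epithelial colorectal markers 6 had a mean of at least 1 FPKM, with KRT19, KRT8, KRT18, EPCAM and CDH1 the highest, while VIL1 and LGALS4 were near 0. Of 5 fibroblast markers only COL1A1 reached 1 FPKM, and the list summed to 3.94 to 5.07 FPKM in MST3 libraries and 3.78 to 4.63 FPKM in vector libraries. Leukocyte and endothelial markers summed to at most 0.441 and 0.428 FPKM in MST3 libraries and to at most 0.8 and 0.384 FPKM in vector libraries.

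HCT116 cells expressed all 12 mitotic kinesins, and none of them passed the test between MST3 and vector libraries. Each had a mean of at least 1 FPKM over the 6 libraries, the level required for testing, as had 20 of the 31 others. No kinesin passed the test over all 13036 genes (limma on log2(FPKM + 1), Benjamini-Hochberg threshold of 0.05), in which 0.00767% of genes were called. At an unadjusted p under 0.05 there was 1 kinesin of 32, KIF12, against 5.38% of all genes. With voom weights on the recovered reads limma called 0 kinesins too, and 1 had an unadjusted p under 0.05. Every 95% interval of the 12 mitotic kinesins included 0, and none reached farther than 0.42 from it on the log2 scale. No decrease was called here, and bulk RNA could not tell fewer cells in division from less RNA per dividing cell.

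Summed over the 12, mitotic kinesins had 218, 233 and 228 FPKM in MST3 libraries and 222, 240 and 223 FPKM in vector libraries. The group means were 226 ± 7.49 FPKM with MST3 and 229 ± 10.2 FPKM with vector (SD, n = 3), a ratio of 0.991. They made up 56.9 ± 0.59% of the FPKM of all 43 kinesin genes in MST3 libraries and 57.2 ± 1.12% in vector libraries (SD, n = 3). Both differences were smaller than the SD between libraries of either group.

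**Figure D1:**
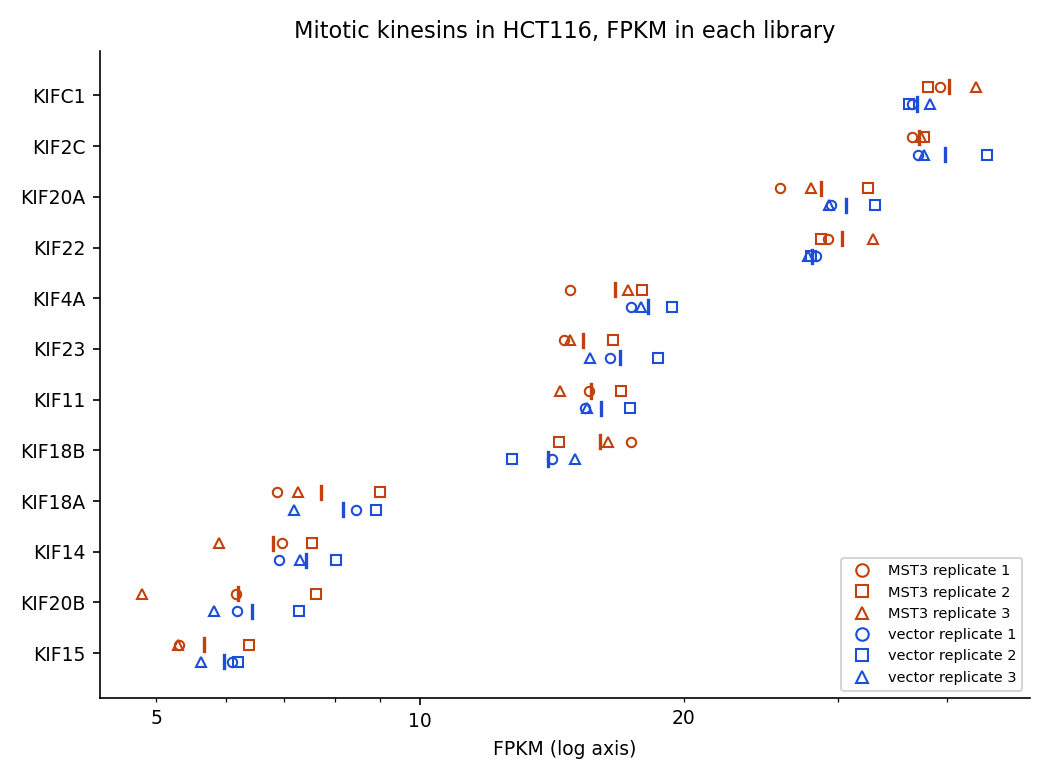
FPKM of the 12 mitotic kinesins in each library, on a log axis. Symbols are libraries, short bars are group means, and MST3 lies above vector in each row. The groups overlap for every gene but KIF22, whose 3 MST3 values lie just above its vector values.

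Motors that act on the spindle poles differed by no more than 0.12 on the log2 scale. KIFC1, a minus-end motor that focuses spindle poles, had 39.2, 38 and 43.2 FPKM in MST3 libraries, against 36.4, 36.2 and 38.2 FPKM in vector libraries. The groups touched, with MST3 replicate 2 below vector replicate 3, and the log2 difference was 0.12 (SE 0.085, 95% interval -0.084 to 0.31). KIF11, also known as Eg5, slides the spindle's opposed microtubules apart and is the target of spindle drugs. Its values were 15.6, 17 and 14.5 FPKM with MST3 and 15.4, 17.3 and 15.5 FPKM with vector, and the second replicate was the highest of each group. The difference was -0.036 (95% interval -0.25 to 0.18), less than the spread between libraries. KIF15, which can stand in for KIF11, averaged 5.66 ± 0.625 FPKM with MST3 and 5.97 ± 0.304 FPKM with vector (SD, n = 3), a difference of -0.069.

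Motors that act on chromosomes and on microtubule ends did not share a direction. KIF22, a chromokinesin that pushes chromosome arms away from the poles, had 29.2, 28.7 and 32.9 FPKM in MST3 libraries, against 28.3, 28 and 27.7 FPKM in vector libraries. It was the only mitotic kinesin whose groups did not overlap, in a background where 11.9% of all genes had separate groups (5.19% higher and 6.7% lower). Its log2 difference of 0.11 (95% interval -0.092 to 0.31) did not pass (limma, adjusted p = 0.727). KIF4A, the chromokinesin that also sets the length of the midzone with PRC1, had 14.8, 17.9 and 17.3 FPKM with MST3 and 17.4, 19.4 and 17.9 FPKM with vector. MST3 replicate 1 was the low value, and the difference was -0.12 (95% interval -0.35 to 0.10). KIF2C, the depolymerase that corrects wrong kinetochore attachments, had 36.5, 37.6 and 37.3 FPKM in MST3 libraries and 37, 44.5 and 37.6 FPKM in vector libraries. Only vector replicate 2 stood above the rest, and the difference was -0.090.

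The kinesins that shorten microtubule plus ends lay on opposite sides. KIF18B, which trims astral microtubules, had 17.4, 14.4 and 16.4 FPKM with MST3 and 14.2, 12.7 and 15 FPKM with vector. Its difference of 0.19 (SE 0.10, 95% interval -0.052 to 0.42; limma, adjusted p = 0.719) was the largest of the 12, and the groups overlapped. KIF18A, which damps the swings of chromosomes on the spindle, had 6.86, 9 and 7.26 FPKM with MST3 and 8.45, 8.9 and 7.18 FPKM with vector. Both groups held high and low libraries, and the difference was -0.078 (95% interval -0.36 to 0.20).

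Kinesins of the midzone and midbody, which finish division, were all lower on average and none was called. KIF23 forms centralspindlin with RACGAP1 and had 14.6, 16.6 and 14.8 FPKM in MST3 libraries, against 16.5, 18.7 and 15.6 FPKM in vector libraries. With a difference of -0.13 (95% interval -0.36 to 0.096) it was the lowest of the 12, although MST3 replicate 2 exceeded 2 of the vector libraries. KIF20A carries the chromosomal passenger complex to the midzone and had 25.7, 32.5 and 28 FPKM with MST3 and 29.4, 33.1 and 29.3 FPKM with vector, a difference of -0.093. Its exons overlap those of BRD8 (mean 8.33 FPKM) and CDC23 (11.2 FPKM) on the opposite strand, over 3.34 and 1.72% of their length. Those of KIF22 overlap AC009133.4 (0 FPKM) over 13% and those of KIFC1 overlap RPL12P1 (0.201 FPKM) over 12.7%, also on the opposite strand. The strand setting of the counting is not given. KIF14, which works at the midbody with citron kinase, averaged 6.79 ± 0.831 FPKM with MST3 and 7.41 ± 0.57 FPKM with vector (SD, n = 3; difference -0.11). KIF20B, needed for the last step of cytokinesis, ranged from 4.82 to 7.6 FPKM with MST3 and from 5.81 to 7.28 FPKM with vector, and its SE of 0.15 on the log2 scale was the largest of the 12. Its difference was -0.059. Mean reads behind the mitotic values ran from 504 per library for KIF15 with MST3 to 2515 for KIF2C with vector.

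As a list, 9 of the 12 mitotic kinesins were lower on average in MST3 libraries and 3 were higher. The median log2 difference was -0.074, against -0.0065 for the 20 tested others, which split into 10 higher and 10 lower, and -0.014 for all genes tested, of which 46.6% were higher and 53.4% lower. The gap between the medians was -0.067, and the SD of that gap between single libraries of a group was 0.071. That SD is not the error of a difference between groups of 3 libraries, and the gap was not tested. The gap came to 0.00072 when MST3 replicate 3 was left out and to 0.0059 when vector replicate 2 was left out. The mitotic median itself was -0.033, -0.16 and -0.029 without MST3 replicates 1 to 3, -0.015 without vector replicate 2 and -0.12 without vector replicate 3. Set against the vector mean, the 3 MST3 libraries had medians of -0.096, 0.042 and -0.13, and the 3 vector libraries -0.038, 0.10 and -0.053. In MST3 replicate 2 the median lay above the vector mean, with 9 of 12 genes above it.

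**Figure D2:**
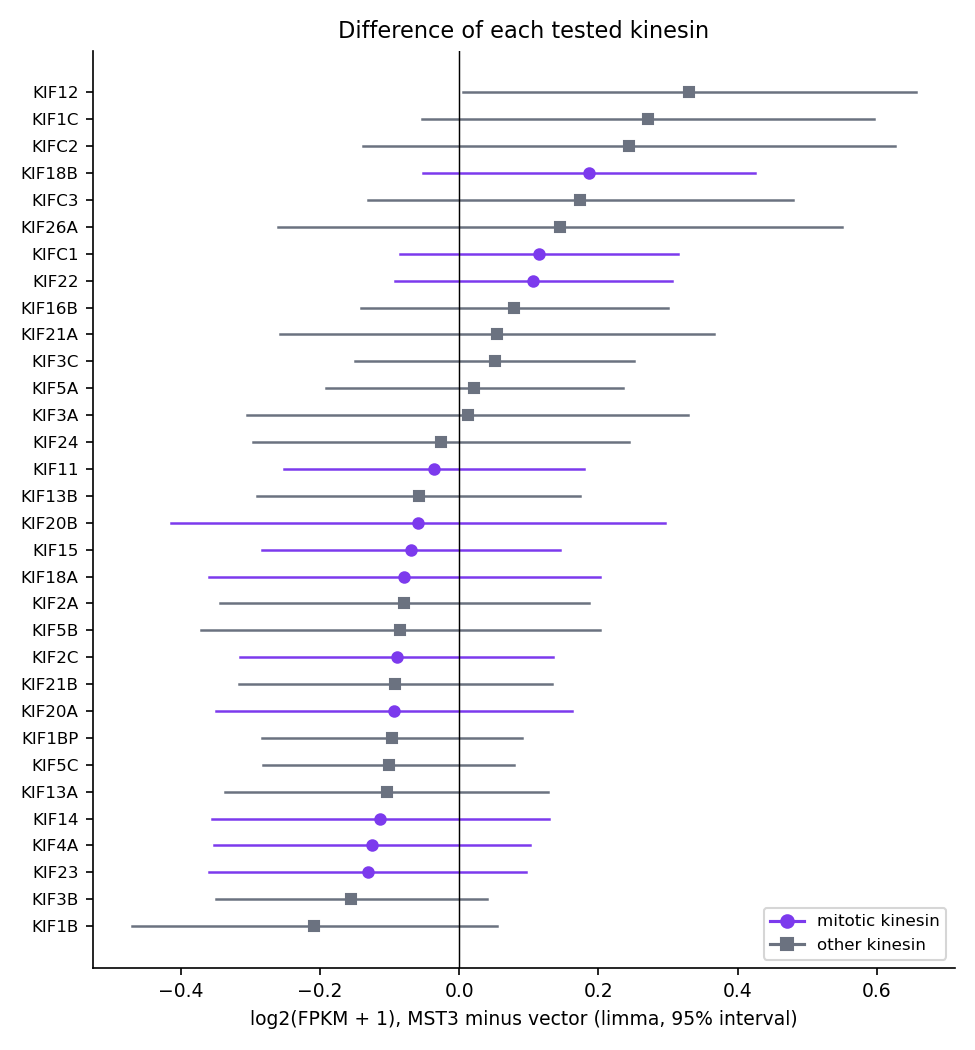
Log2(FPKM + 1) difference, MST3 minus vector, of the 32 tested kinesins in order of size, with 95% intervals from limma. Circles are mitotic kinesins and squares the others, and every interval includes 0 except that of KIF12, which starts at 0.0055.

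The split in sign among mitotic kinesins followed the base composition of the transcripts, but the sizes of the differences did so less closely. KIFC1, KIF22 and KIF18B, the 3 that were higher, have a GC content of 57.9, 58.9 and 58.4% in their longest transcript. The 9 that were lower range from 34.2% (KIF20B) to 50.4% (KIF2C). Within these 9 the difference did not rise with GC content, as KIF20B was at -0.059 and KIF23, with 42.3% GC, at -0.13. Across all 32 tested kinesins, 8 of 9 with a GC content above 55% were higher, KIF21B being the exception, and 18 of 23 with 55% or less were lower. The boundary of 55% was chosen after the values were seen. All genes tested showed the same tilt, with 75.6% higher among those above 55% and 34.1% higher among the rest. Over the 32 kinesins Pearson's r between GC content and difference was 0.663 and Spearman's rho 0.512, and over all genes they were 0.331 and 0.438. Over the 12 mitotic kinesins alone r was 0.746 and rho 0.364. These describe genes of the same 6 libraries, which are not independent replicates.

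**Figure D3:**
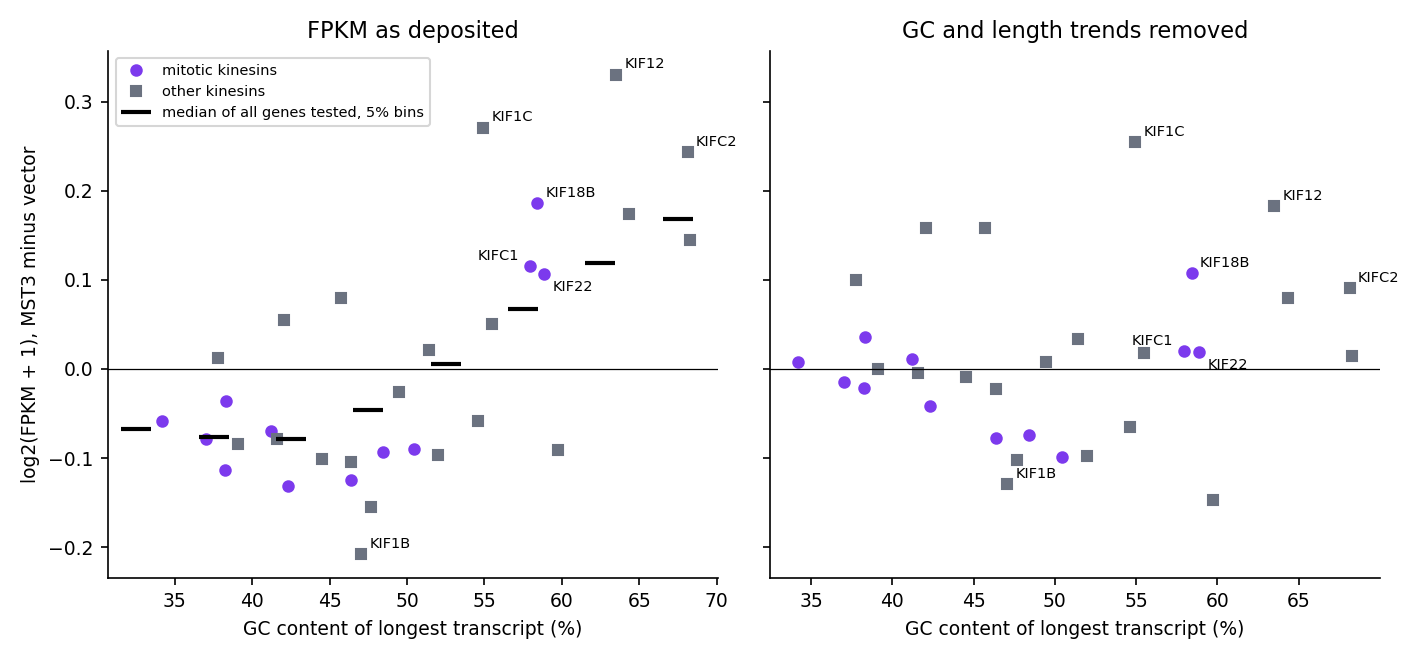
Log2 difference (MST3 minus vector) of each tested kinesin against the GC content of its longest transcript, from FPKM as deposited (left) and after removing each library's trend with GC content and length (right). Black bars in the left panel are medians of all genes tested in bins of 5% GC. They are -0.067 at 30 to 35%, lowest at 40 to 45% (-0.079) and highest at 65 to 70% (0.17).

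The size and sign of the tilt varied between libraries of the same group. In MST3 replicate 3 the 3234 genes with the highest GC content had a median of 0.30 against the vector mean, and the 3234 with the lowest GC content one of -0.18. In MST3 replicate 1 these medians were 0.066 and -0.096. In MST3 replicate 2 the medians were -0.045 and 0.040, the reverse order, and vector replicate 2 was tilted the same way, at -0.070 and 0.056. The 3 mitotic kinesins rich in GC had medians of 0.085, 0.042 and 0.22 in the MST3 libraries, against 0.016, -0.029 and 0.048 in the vector libraries. The other 9 had -0.14, 0.075 and -0.15 in MST3 libraries and -0.053, 0.11 and -0.070 in vector libraries. All 9 lay below the vector mean in MST3 replicates 1 and 3 and in vector replicate 3, and all 9 lay above it in vector replicate 2.

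Once each library's trend with GC content and gene length was removed, the mitotic kinesins split evenly, with 6 higher and 6 lower. Their median difference was then -0.0039, against 0.011 for the others. KIFC1 came to 0.020, KIF22 to 0.019 and KIF18B to 0.11, while KIF23 came to -0.041 and KIF4A to -0.078. The removal was chosen after seeing the data.

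**Figure D4:**
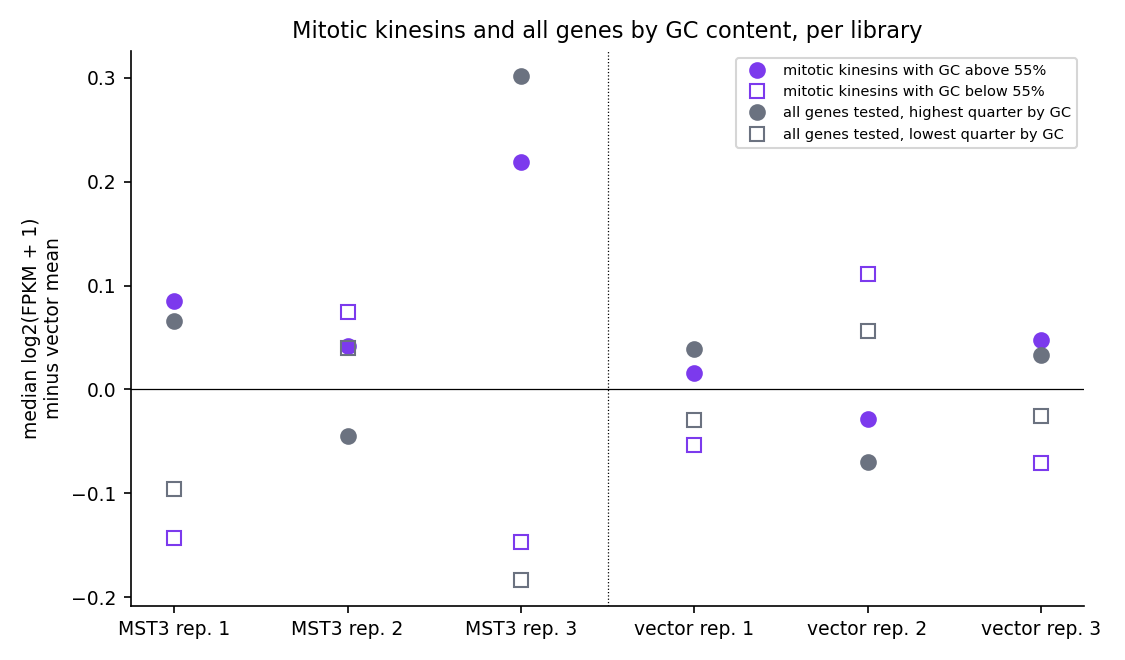
Median log2(FPKM + 1) minus the vector mean in each library, for the 3 mitotic kinesins with a GC content above 55% and the other 9, beside the 3234 genes of highest and the 3234 of lowest GC content. The 2 kinesin groups part most in MST3 replicate 3 (0.22 and -0.15) and change order in both second replicates. In MST3 replicate 2 both still lie above the vector mean (0.042 and 0.075), while the genes of highest GC content lie below it (-0.045).

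Among transport kinesins KIF5B led with 41.4, 53.7 and 43 FPKM in MST3 libraries, against 45, 52.6 and 48.3 FPKM in vector libraries. It is the heavy chain of conventional kinesin in most tissues and was the most abundant kinesin mRNA on the per-length scale of FPKM. Its second replicates were the highest of both groups and the difference was -0.085 (95% interval -0.37 to 0.20). KIF5C and KIF5A, its neuronal relatives, averaged 3.07 and 2.2 FPKM with MST3 and 3.37 and 2.15 FPKM with vector.

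KIF1C and KIF1B, relatives that carry vesicles, lay on opposite sides. KIF1C had 25.7, 22.4 and 27.8 FPKM with MST3 and 21.6, 17.2 and 23.9 FPKM with vector, a difference of 0.27 (SE 0.14, 95% interval -0.054 to 0.60; limma, adjusted p = 0.719). The groups overlapped, with vector replicate 3 above MST3 replicate 2, and the difference was 0.26 after the GC and length trends were removed and 0.14 without vector replicate 2. KIF1B had 9.37, 12.4 and 11.9 FPKM with MST3 and 12.6, 13.5 and 13 FPKM with vector, with every MST3 library below every vector library. Its difference was -0.21 (95% interval -0.47 to 0.054; limma, adjusted p = 0.719) and came to -0.13 without those trends. MST3 replicate 1 was the lowest, and without it the difference was -0.093. KIF1BP, whose product binds KIF1 and other motors and keeps them off microtubules, had 4.86, 4.99 and 4.44 FPKM with MST3 and 5.46, 5.17 and 4.86 FPKM with vector. Vector replicate 3 lay below MST3 replicate 2 and the difference was -0.096.

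KIF3B, the partner of KIF3A in the motor of intraflagellar transport, had 14.1, 15.6 and 15 FPKM with MST3, against 15.8, 17.8 and 16.6 FPKM with vector. The groups did not overlap, and the difference was -0.15 (95% interval -0.35 to 0.041; limma, adjusted p = 0.719). KIF3A itself averaged 3.83 ± 0.796 FPKM with MST3 and 3.76 ± 0.357 FPKM with vector (SD, n = 3), a difference of 0.012. KIF2A, a depolymerase that also serves the spindle poles, had 8.86, 11.7 and 10.5 FPKM with MST3 and 10.1, 11.8 and 11 FPKM with vector (difference -0.079). It shares 428 bp of exons with IPO11 on the same strand, 8.97% of its exonic length.

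The minus-end motors KIFC2 and KIFC3 and the kinesins KIF26A and KIF12, all above 60% GC, were higher on average. KIFC2 had 10.8, 7.84 and 12.6 FPKM in MST3 libraries and 9.31, 7.53 and 8.7 FPKM in vector libraries, so that MST3 replicate 2 lay inside the vector range. Its difference was 0.24 (95% interval -0.14 to 0.63), and 0.091 without the GC and length trends. Leaving out MST3 replicate 3 gave 0.11, and leaving out MST3 replicate 2 gave 0.42. KIFC3, known from epithelial cell junctions, had 5.79, 4.83 and 7.27 FPKM with MST3 and 4.94, 4.95 and 5.44 FPKM with vector. Its difference of 0.17 came to 0.042 without MST3 replicate 3 and to 0.30 without MST3 replicate 2. KIF26A had 4.88, 4.41 and 7.68 FPKM with MST3 and 5.2, 4.59 and 4.88 FPKM with vector, so 1 library made its mean higher. The difference of 0.15 became -0.062 without MST3 replicate 3 and 0.28 without MST3 replicate 2.

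KIF12 had the largest ratio of the tested kinesins. Its values were 2.27, 2.01 and 3.11 FPKM with MST3 and 1.95, 1.65 and 1.6 FPKM with vector, from a mean of 126 and 91.7 reads per library. Group means were 2.46 ± 0.577 FPKM with MST3 and 1.74 ± 0.187 FPKM with vector (SD, n = 3), a ratio of 1.42. The groups did not overlap, and the log2 difference was 0.33 (SE 0.14, 95% interval 0.0055 to 0.66; limma, unadjusted p = 0.0471, adjusted p = 0.719). It was 0.20 to 0.43 with each library left out in turn and 0.18 without the GC and length trends. In all, 5 of the 32 tested kinesins had separate groups (15.6%, against 11.9% of all genes), with KIF12 and KIF22 higher and KIF3B, KIF1B and KIF5C lower, of which KIF5C was named after its values were seen.

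**Figure D5:**
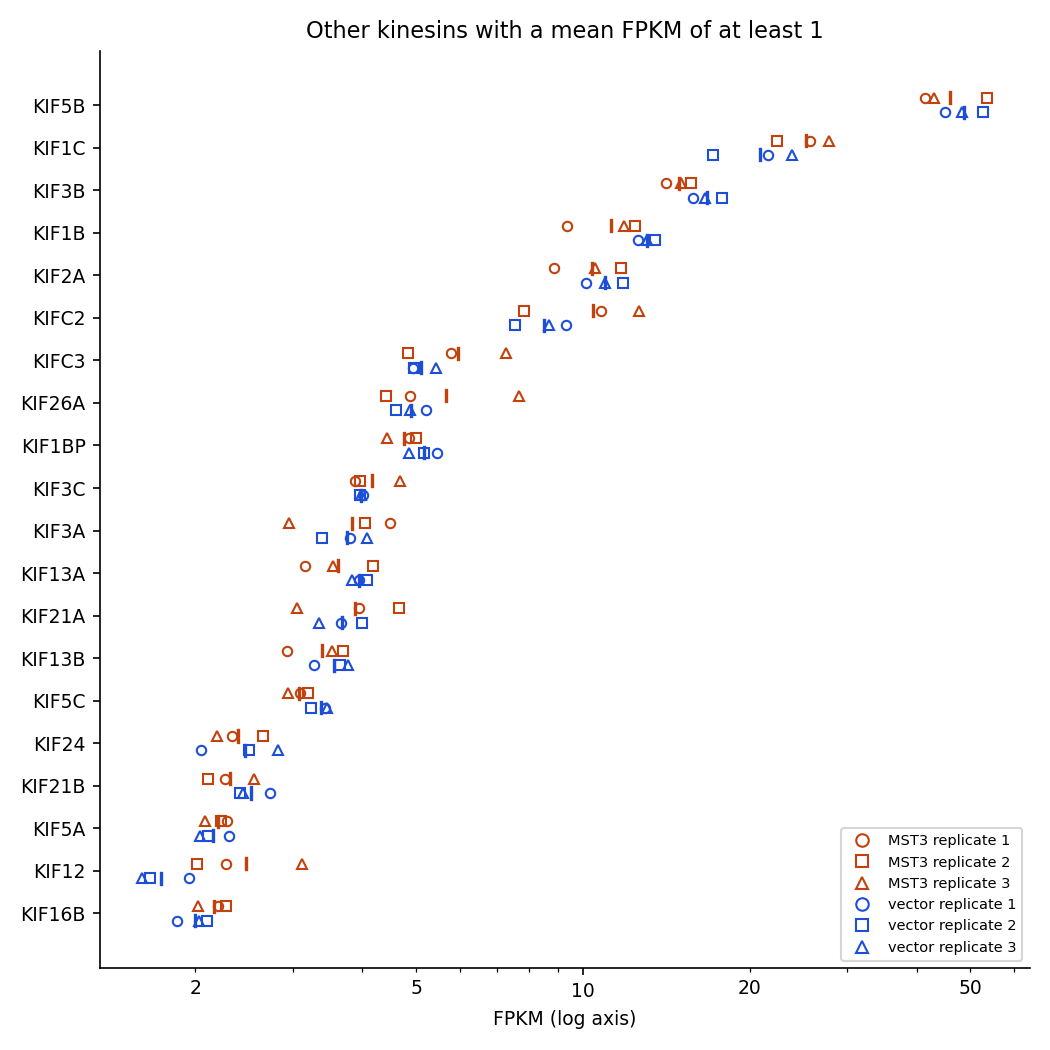
FPKM of the 20 tested kinesins outside the mitotic set in each library, on a log axis, with MST3 above vector in each row. Levels run from about 2 FPKM for KIF16B to over 40 for KIF5B, and in KIFC2, KIFC3, KIF26A and KIF12 the highest value is MST3 replicate 3.

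The other tested members were KIF3C, KIF13A, KIF13B, KIF16B, KIF21A, KIF21B and KIF24, at means of 2.08 to 4.08 FPKM over the 6 libraries. Just above the testing level of 1 FPKM stood KIF16B (2.08) and KIF12 (2.1), and just below it KIF27 (0.965), KIF17 (0.931) and KIF9 (0.841). KIF7, which acts in Hedgehog signalling at the cilium, had 0.43 ± 0.0762 FPKM with MST3 and 0.397 ± 0.175 FPKM with vector (SD, n = 3). KIF26B averaged 0.325 FPKM with MST3 and 0.351 FPKM with vector. KIF19 and KIF1A stayed under 0.14 FPKM in every library. KIF4B, an intronless copy of KIF4A with which it can share reads, had a mean of 2 reads per MST3 library and 1.33 per vector library. KIF6 had fewer still, KIF25 had reads in MST3 replicate 2 alone, and KIF2B had 0 in all 6, which allows up to 3 reads or 0.0738 to 0.0813 FPKM per library by counting error alone.

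Genes that work with the motors held no gene called either. Of the mitotic kinesin partners, 17 of 21 tested were lower and 4 higher (median -0.098), and 0 passed limma, with 0 at an unadjusted p under 0.05. TPX2, which loads KIF11 and KIF15 on the spindle, averaged 77.4 ± 9.26 FPKM with MST3 and 88.8 ± 5.84 FPKM with vector (SD, n = 3). RACGAP1, the partner of KIF23, averaged 35.1 ± 2.65 FPKM with MST3 and 39.4 ± 3.02 FPKM with vector. Among the listed regulators of mitotic gene transcription, which include the CCAAT-binding NFY subunits, 9 of 13 were lower (median -0.072), with LIN52 of the DREAM complex at 3.22 ± 0.414 FPKM with MST3 and 4.13 ± 0.249 FPKM with vector (SD, n = 3; limma, unadjusted p = 0.0204, adjusted p = 0.719). The median GC contents of these lists were 43.9 and 43.6%, both below the 48.5% of all genes tested. Of all genes below that median, 27.9% were higher.

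Cargo adaptors of transport kinesins had 8 higher and 12 lower of 20 tested (median -0.056). KLC3, a light chain of conventional kinesin, averaged 7.28 ± 1.66 FPKM with MST3 and 5.22 ± 0.355 FPKM with vector (SD, n = 3; limma, adjusted p = 0.719). Dynein and dynactin, the opposing motor, had 4 higher and 14 lower of 18 (median -0.070), with DCTN6 at 10.5 FPKM with MST3 and 12.5 FPKM with vector. Tubulins, the track itself, split into 5 higher and 6 lower (median -0.023), with TUBB at 311 FPKM with MST3 and 352 FPKM with vector, and TUBA1B at 138 FPKM with MST3 and 125 FPKM with vector. The median GC content was 53.9% for the adaptors, 46.7% for dynein and dynactin and 57.8% for the tubulins. All genes tested had a median difference of -0.046 at 45 to 50% GC, 0.0054 at 50 to 55% and 0.068 at 55 to 60%. The medians of the adaptors, of dynein and dynactin and of the tubulins were thus all below that of all genes with like GC content. At 40 to 45% GC all genes had a median of -0.079. The median of the mitotic kinesin partners lay below it (-0.098) and that of the transcription regulators above it (-0.072). No gene of the 5 lists passed limma over all genes, with a smallest adjusted p of 0.719 in each, and KLC3, LIN52 and DCTN6 were among those with an unadjusted p under 0.05.

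Over the 6 libraries the protein-coding genes most like KIF11 outside the kinesins were ACSL3, DDX17, SUCO, PFN2 and TMEM69, with Pearson's r of 0.988 to 0.990 and Spearman's rho of 0.829 to 1. The points share 6 libraries and their trends, and these genes have a GC content of 38.1 to 44.7%. Among kinesins KIF20B (r = 0.960) and KIF14 (r = 0.925) were closest to KIF11 and KIFC2 (r = -0.898) was farthest.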

How the data were processed

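A single table was deposited by the authors, with gene lengths and an FPKM column for each library (fragments per kilobase, on a scale of the authors' own per library). HISAT2 is named per the submitters' processing notes. The counter, strand setting, build and annotation are not stated in the labels, so reads of overlapping antisense genes may be included. All 43 kinesin entries match GENCODE 29 (GRCh38) in position.

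FPKM times gene length was a whole multiple of 1 step in 100% of values (tolerance 0.01), which gave the reads. Values were tested as log2(FPKM + 1) by limma 3.58.1 in R 4.3.3 (trended eBayes) over 13036 genes, those whose mean reached 1 FPKM, with Benjamini-Hochberg adjustment over all of them. The pseudocount of 1 understates the change of low genes. The fit was also run on simulated counts with known changes, which had the same relative spread setting for all genes and no trend with GC content. That run does not gauge the calls under the trends seen here. GC content came from the longest GENCODE 29 transcript (99.2% of tested genes). Trends with GC content and length were removed by natural splines.

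The members and lists were chosen with earlier results of these data known. All 12 mitotic kinesins were named, and of the others the 8 highest in FPKM, the 6 with the smallest p and KIF1BP. The remaining members are given by level. Up to 4 genes per companion list could be named. Alternatives varied pseudocount, filter, scaling, variance model, replicate block and libraries.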

Additional observations from a re-analysis of the deposited data

How the results depend on the processing

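No kinesin passed limma over all genes under any of the 21 alternatives, and the smallest adjusted p of a named kinesin was 0.217, for KIFC2 without MST3 replicate 2. In that fit 5 kinesins and 2555 of all genes had an unadjusted p under 0.05, against 1 and 701 with all libraries. STK24 passed in each, with log2 differences of 1.91 to 2.04 when 1 library was left out. Leaving out 1 library at a time gave a median of -0.16 to -0.015 for mitotic kinesins, of -0.053 to 0.020 for the others and a gap of -0.12 to 0.0059. With a filter at 5 FPKM the median of the others was 0.033, over 8 genes. Of 460 values of the 22 named kinesins, 9 changed sign. Without the GC and length trends KIF11 came to 0.035, KIF15 to 0.011 and KIF20B to 0.0074. With 1 library left out KIF11 ranged from -0.091 to 0.017, KIF20B from -0.20 to 0.085, KIF2A from -0.16 to 0.020 and KIF26A from -0.062 to 0.28. The cause of these changes was not tested.

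With the replicate block, 0 kinesins were called (smallest adjusted p = 0.482, KIF1C), the mitotic median stayed at -0.074, and 1338 genes had an unadjusted p under 0.05. Same-numbered libraries correlated at 0.0158, 0.226 and 0.035 in their deviations from the group means. Only the second pair correlated best with its own number. The labels give only a number, and with 3 libraries per group these correlations cannot settle whether same-numbered libraries were handled together. Mean reads behind KIF12 were 126 per MST3 library and 91.7 per vector library, the fewest of the tested kinesins.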
